A study of Homo sapiens with 6 samples.

Results

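ATP-binding cassette (ABC) transporter genes were examined in K562 cells with and without hyperoside. The genes were every protein-coding row of the deposited count table whose symbol is ABC, a subfamily letter from A to G and then only digits. This rule found 44 genes among the 24960 genes of the table, of which 17107 are listed as protein coding. By subfamily there were 12 ABCA, 9 ABCB, 10 ABCC, 4 ABCD, 1 ABCE, 3 ABCF and 5 ABCG genes. TAP1, TAP2 and CFTR belong to the same superfamily under other symbols and are described separately. K562 is an established chronic myeloid leukemia (CML) line with erythroid features, of which all libraries are cultures of the same line, so the values hold for this line only. The control group had 3 libraries of K562 cells labelled Control, and the hyperoside group had 3 libraries of K562 cells given hyperoside, a flavonol glycoside, which the study's text places at 2 mM. The control vehicle, the treatment time before RNA extraction and whether the replicates were separate cultures are not given in the sources used here, so the p-values measure the spread between these libraries.

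ABC proteins share an ATP-binding domain that drives most of them to move a substrate across a membrane. ABCB1 (P-glycoprotein), ABCG2 (breast cancer resistance protein) and several ABCC proteins expel drugs and conjugates from the cell, and ABCB1 and ABCG2 are known in CML as exporters of imatinib and other kinase inhibitors. The ABCA proteins and ABCG1 mainly handle cholesterol and phospholipids. Some ABCB proteins sit in mitochondria, where they serve heme and iron-sulfur cluster metabolism, and several ABCD proteins bring fatty acyl chains into peroxisomes. ABCE1 and the ABCF proteins have no membrane part and act on ribosomes instead.

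Gene counts totalled 35613283 to 36754725 in the single libraries. The erythroid markers of K562 cells were plainly present, with HBG2 at 1209 to 2505 FPKM (fragments per kilobase of gene length, scaled to library size) and GATA1 at 88.0 to 105.8 FPKM over the 6 libraries. Of the 8 K562 markers, 4 fell, among them HBG1, HBG2 and HBE1, KLF1 rose, and HBZ, GATA1 and TAL1 were not called. Among all tested genes, 22.1% were called higher and 23.2% lower. The summed level of the 8 markers was 7651 to 9494 FPKM in the control group and 5530 to 6689 FPKM in the hyperoside group. The labels name bone as the tissue, and the bone gene BGLAP was at 0 in 4 of the 6 libraries and at most 0.376 FPKM in the others. The other 3 of the 4 bone and stroma markers, COL1A1, COL1A2 and RUNX2, were detected in every library at 0.219 to 1.17 FPKM, and COL1A1 was called lower (edgeR adjusted p = 0.00711). The 4 lymphocyte markers summed to 1.26 to 2.03 FPKM in the controls and 1.34 to 1.94 FPKM with hyperoside, with the B cell gene MS4A1 at 0 in 5 libraries. The platelet gene PPBP did not pass the filter on low counts. ITGB3, a megakaryocytic integrin, rose from 0.728 to 0.827 FPKM in the control libraries to 1.96 to 2.69 FPKM in the hyperoside libraries. Of the listed epithelial markers, EPCAM was at 48.7 to 53.0 FPKM in all libraries, whereas CDH1 was at 0.00576 to 0.103 FPKM.

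Of the 44 ABC genes, 42 had at least 1 count and 33 passed edgeR's filter on low counts and were tested. At an adjusted p under 0.05 in edgeR's quasi-likelihood test, 6 ABC genes were called higher with hyperoside and 11 lower, so 17 of 33 (51.5%) were called. Among all 15095 tested genes 45.3% were called, 22.1% higher and 23.2% lower, so the share of ABC genes called was close to the background. With a fold change above 2 added, 2 genes, ABCA6 among them, were higher and ABCB1, ABCB6 and ABCG2 were lower, which is 5 of 33 (15.2%) against 10.2% of all tested genes (6.43% higher and 3.76% lower). The normalized values of the groups did not overlap in 20 of the 33 genes, against 54.4% of all tested genes. The median log2 fold change was -0.09 over the tested ABC genes and 0.00 over all tested genes. Without control replicate 2 the median of the ABC genes was 0.02, and without control replicate 1 it was -0.16. Each of the 17 called genes had at least 11 counts in every library. By subfamily, 4 ABCA genes rose and 3 fell of 9 tested, 4 ABCB genes fell of 8, 1 ABCC gene rose and 1 fell of 6, 1 ABCD gene rose and 1 fell of 4, ABCE1 fell, none of the 3 ABCF genes was called, and ABCG2 was the called gene of the 2 ABCG genes tested. At an unadjusted edgeR p under 0.05 the count in the F subfamily was also 0 of 3, and DESeq2 and limma-voom called 0 as well.

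**Figure D1:**
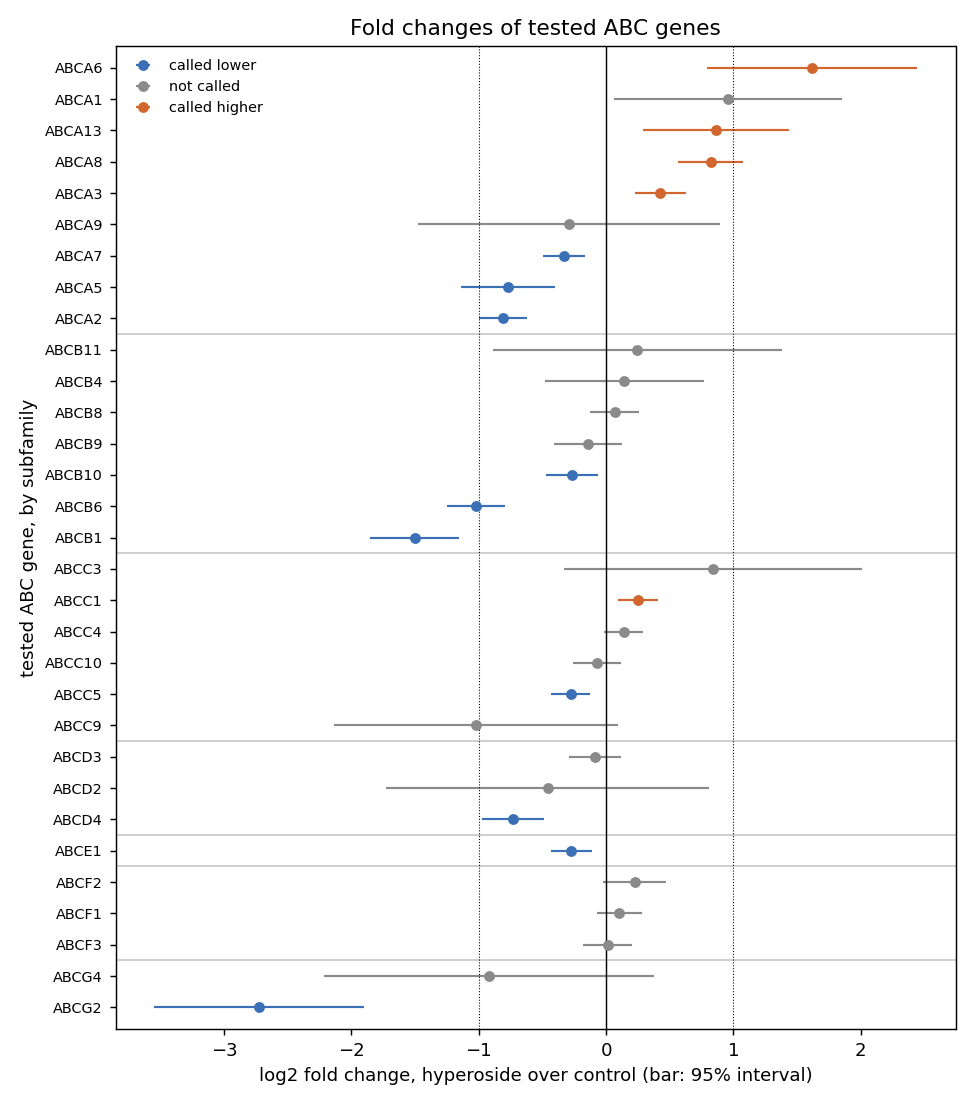
Log2 fold change (hyperoside over control, x axis) of tested ABC genes by subfamily (y axis), with 95% intervals from edgeR's test as bars and dotted lines at a fold change of 2. ABCG2 at -2.72 and ABCB1 at -1.50 lie farthest to the left, and ABCA6 at 1.62 farthest to the right.

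On the FPKM scale, which divides by gene length and so allows levels of different genes to be compared, the soluble translation factors led the family. ABCF1 had a mean of 53.2 FPKM over the 6 libraries, ABCE1 40.5 FPKM and ABCF3 19.2 FPKM. The control ranges of ABCF1 (46.0 to 55.0 FPKM) and ABCE1 (39.1 to 46.0 FPKM) just overlapped. The hyperoside ranges, 52.0 to 60.8 and 34.7 to 40.0 FPKM, did not. Within each library ABCF1 lay above ABCE1, most narrowly in control replicate 3 (46.0 against 45.9 FPKM). Among the highest transporters were ABCB10 with 14.3 FPKM, ABCA7 with 14.2 FPKM, ABCC1 with 13.0 FPKM and ABCB6 with 12.4 FPKM, and their ranges overlapped. The 4 soluble factors together held 44.2 to 49.4% of the summed FPKM of all 44 genes in each library. In all, 9 ABC genes reached 10 FPKM, 14 reached 5 FPKM and 21 reached 1 FPKM, counted by their mean over the libraries. The pumps ABCB1 (1.22 FPKM) and ABCG2 (0.439 FPKM) stood far below ABCC1, ABCC4 (10.4 FPKM), ABCC5 (7.89 FPKM) and ABCC10 (5.14 FPKM).

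**Figure D2:**
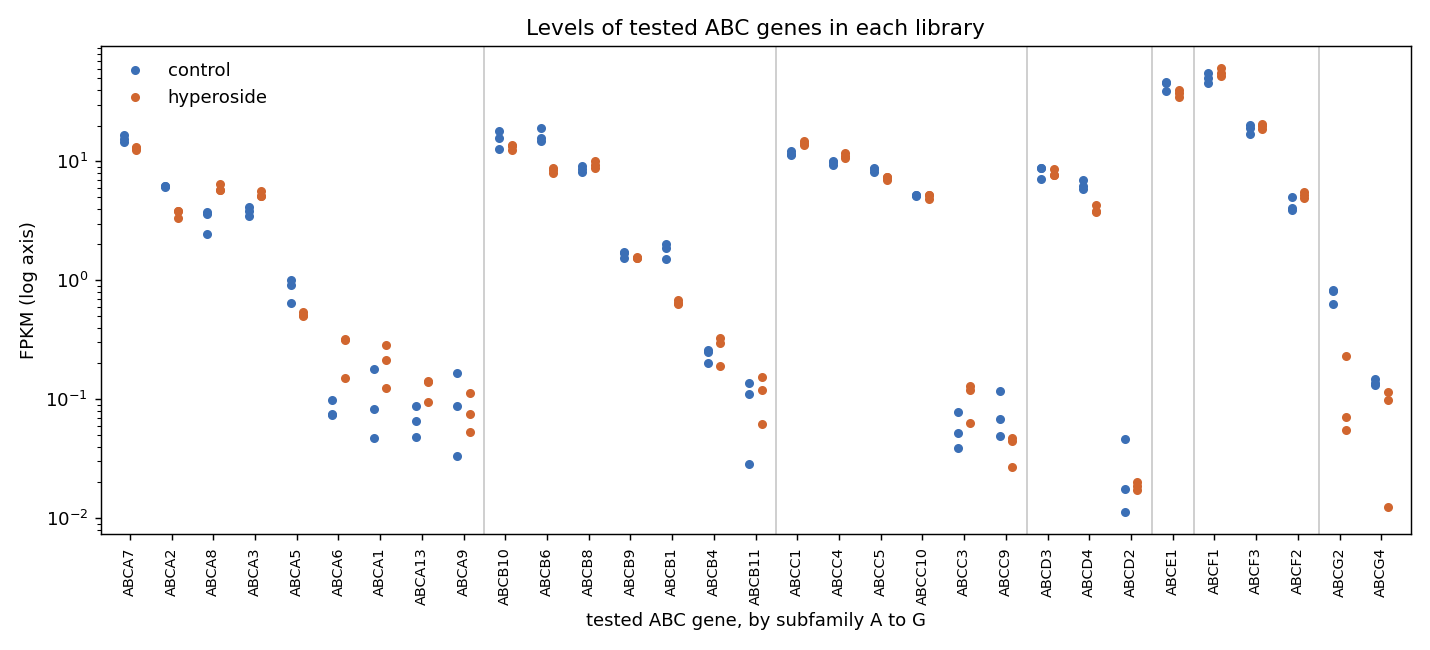
FPKM on a log axis (y) of tested ABC genes, ordered by subfamily and mean level (x), with 3 control and 3 hyperoside libraries as points. ABCF1 and ABCE1 lie at the top, and ABCD2, with a mean of 0.0219 FPKM, lies at the bottom.

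The drug pumps did not move together. ABCG2 and ABCB1 fell to 15.04% and 35.3% of the control mean, ABCC1 rose to 118.9% and ABCC5 fell to 82.5%, and ABCC4 and ABCC10 did not pass the test. ABCG2 had 4.83, 3.52 and 4.53 normalized CPM (counts scaled to library size, with TMM factors) in control replicates 1, 2 and 3 and 0.381, 1.25 and 0.305 in hyperoside replicates 1, 2 and 3. Hyperoside replicate 2 was higher than the other hyperoside libraries, and all 3 hyperoside libraries lay below all control libraries. These values rest on 170, 124 and 162 counts without hyperoside and 14, 46 and 11 counts in the hyperoside group. The log2 fold change of ABCG2 was -2.72 (standard error 0.39, 95% interval -3.55 to -1.90, adjusted p = 2.16e-05 from edgeR with Benjamini-Hochberg adjustment). Without hyperoside replicate 2 it was -3.63, and on log2(FPKM + 1), where the added 1 exceeds the gene's own level, it was -0.65. ABCB1 had 12.1, 8.78 and 10.6 normalized CPM in controls 1 to 3 and 3.60, 3.87 and 3.63 with hyperoside. The 3 hyperoside libraries were close to each other and below every control library. Its log2 fold change was -1.50 (standard error 0.17, 95% interval -1.85 to -1.15, edgeR adjusted p = 1.18e-06), and it was -0.75 on log2(FPKM + 1). ABCB4, a phosphatidylcholine exporter that lies 26990 bases from ABCB1 on chromosome 7, had 2.10, 2.10 and 1.595 normalized CPM without hyperoside and 2.53, 1.498 and 2.38 with hyperoside. The ABCB4 values of the groups overlapped, with a log2 fold change of 0.14 (95% interval -0.48 to 0.77, edgeR adjusted p = 0.721).

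ABCC1 (MRP1), an exporter of glutathione conjugates, had 87.2, 89.1 and 81.7 normalized CPM in controls 1 to 3 and 101.6, 98.6 and 106.6 with hyperoside. The groups did not overlap, and the log2 fold change was 0.25 (standard error 0.07, edgeR adjusted p = 0.0110). Without control replicate 3 the edgeR adjusted p of ABCC1 was 0.0539, so the call was lost. ABCC5 (MRP5), an exporter of cyclic nucleotides, had 102.0, 105.2 and 103.1 normalized CPM in controls 1 to 3 and 86.6, 86.8 and 82.5 with hyperoside. All hyperoside libraries were lower, and the log2 fold change was -0.28 (standard error 0.07, edgeR adjusted p = 0.00423). ABCC4 (MRP4) had 76.8, 81.3 and 77.5 normalized CPM without hyperoside and 89.8, 85.6 and 83.6 with hyperoside. The ABCC4 groups did not overlap, but the log2 fold change of 0.14 had a 95% interval of -0.02 to 0.29 and an edgeR adjusted p of 0.146. ABCC10 (MRP7) had 35.5, 33.6 and 33.6 normalized CPM without hyperoside and 30.8, 33.5 and 33.4 with hyperoside. Its log2 fold change was -0.07 (95% interval -0.26 to 0.12, edgeR adjusted p = 0.539). The canalicular pump ABCC2 had 0, 6 and 9 counts without hyperoside and 1, 16 and 5 with hyperoside and was not tested. ABCC3 had 11, 16 and 8 counts against 13, 27 and 25, with overlapping groups and an edgeR adjusted p of 0.231. ABCC6 (1, 8 and 6 counts against 2, 2 and 0) and ABCC11 (0, 4 and 4 counts against 1, 1 and 1) were not tested. ABCC6 has near-identical pseudogene copies, so its counts are uncertain besides being few. ABCB5 had 1 count in 1 control library and 0 in the others. The summed FPKM of the 11 drug and organic anion pumps was 37.1 to 38.4 in the control libraries and 38.5 to 39.1 in the hyperoside libraries, a sum made up mostly of ABCC1, ABCC4, ABCC5 and ABCC10. In bulk RNA, a lower level per cell and fewer cells that express a gene cannot be told apart.

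**Figure D3:**
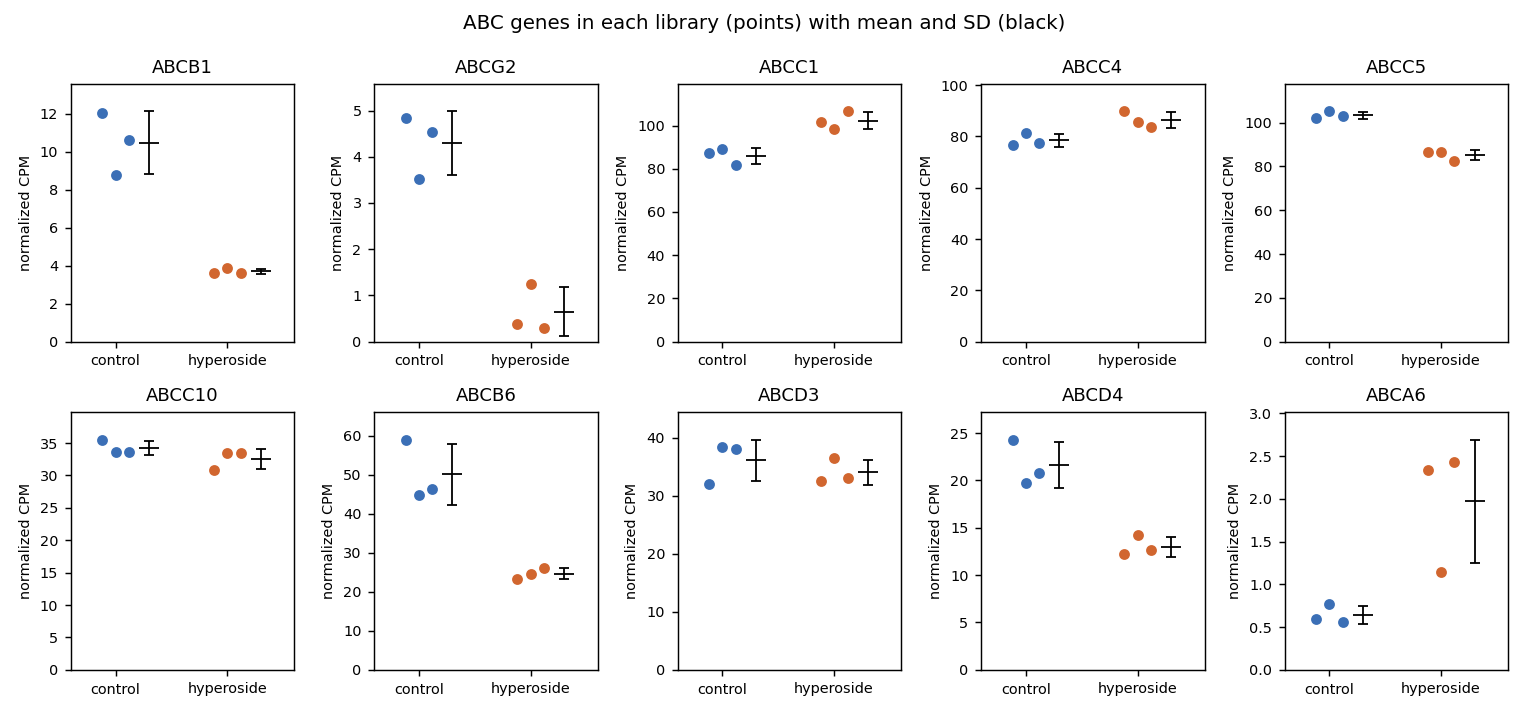
Normalized CPM (y axis, from 0, its own scale in each panel) of 10 ABC genes in the 3 control and 3 hyperoside libraries (x axis), with the mean and SD in black. The groups are apart for ABCB1, ABCG2, ABCB6, ABCD4 and ABCA6, and by less on the panel scale for ABCC1, ABCC4 and ABCC5. The values of ABCC10, whose groups barely miss overlapping, and of ABCD3, whose groups overlap, lie close together.

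The RefSeq promoter table of GRCh38.p14 held windows for 34 of the 44 genes, 50 windows in all, each with 250 bases before and 50 after a gene start. Genes without a window included ABCA4, ABCA8, ABCB4, ABCB5, ABCC1, ABCC3, ABCC8 and ABCG1. The 250 bases before the start are shown for the 3 genes that fell over 2-fold, and for ABCA6, which rose over 2-fold. For ABCB1 both RefSeq starts are shown, since the counts do not tell which was used. For ABCG2, which has 5 windows, the one nearest to the start of GENCODE's principal transcript was taken. Capitals mark the antioxidant response element core TGACNNNGC, the letters that NRF2 dimers are known to bind, where it was found on either strand.
ABCB1 (downstream start), chr7:87600885-87601134, minus strand: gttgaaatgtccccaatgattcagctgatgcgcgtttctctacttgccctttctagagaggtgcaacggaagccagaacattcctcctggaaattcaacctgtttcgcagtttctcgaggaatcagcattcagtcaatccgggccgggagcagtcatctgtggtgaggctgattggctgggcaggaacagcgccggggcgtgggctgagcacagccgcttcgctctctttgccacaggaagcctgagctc
ABCB1 (upstream start), chr7:87713296-87713545, minus strand: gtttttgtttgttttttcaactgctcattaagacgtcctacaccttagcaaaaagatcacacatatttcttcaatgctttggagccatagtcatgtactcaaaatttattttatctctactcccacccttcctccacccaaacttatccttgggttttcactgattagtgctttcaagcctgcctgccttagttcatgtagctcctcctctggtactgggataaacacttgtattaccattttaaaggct
ABCG2, chr4:88158910-88159159, minus strand: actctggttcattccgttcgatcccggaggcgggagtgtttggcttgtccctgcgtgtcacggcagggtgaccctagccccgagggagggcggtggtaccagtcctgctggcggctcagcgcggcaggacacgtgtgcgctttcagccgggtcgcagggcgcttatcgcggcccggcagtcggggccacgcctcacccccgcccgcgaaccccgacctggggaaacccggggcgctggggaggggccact
ABCB6, chr2:219218959-219219208, minus strand: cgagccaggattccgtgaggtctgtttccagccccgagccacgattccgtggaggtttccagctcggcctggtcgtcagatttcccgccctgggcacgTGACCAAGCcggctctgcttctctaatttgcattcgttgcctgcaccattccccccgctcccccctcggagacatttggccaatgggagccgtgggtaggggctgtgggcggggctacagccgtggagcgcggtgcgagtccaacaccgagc
ABCA6, chr17:69141896-69142145, minus strand: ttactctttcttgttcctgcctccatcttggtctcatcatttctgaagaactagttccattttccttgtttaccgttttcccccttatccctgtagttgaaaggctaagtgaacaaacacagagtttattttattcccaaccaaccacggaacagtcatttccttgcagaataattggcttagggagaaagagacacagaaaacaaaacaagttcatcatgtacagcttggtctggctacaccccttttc
Within these 250 bases the core was found in ABCB6 and not in the others shown. The share of G and C was 71.2% for ABCG2, 64.4% for ABCB6, 55.6% and 39.2% for the ABCB1 windows and 40.8% for ABCA6, against a median of 58.0% over all 35116 windows of the table. ABCG2 had 27 CG steps and ABCB6 had 20, against a median of 11. Over whole windows, 12 of the 50 ABC windows, of 12 genes, held the core on either strand, against 13.3% of all windows. These genes were ABCA2, ABCA3, ABCA5, ABCB6, ABCB9, ABCC4, ABCC10, ABCC11, ABCD4, ABCF1, ABCG2 (in another of its windows) and ABCG4. The amino acid response element core TGATGNAA was found in 3 of the 50 ABC windows, against 3.62% of all windows. These were windows of ABCA13, ABCB11 and ABCG2, for ABCG2 not the window shown. The sterol response element core TCACNCCAC was found in none of the ABC windows and in 1.13% of all windows. Such matches describe letters only.

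Among the lipid and sterol transporters, ABCA6, ABCA8, ABCA3 and ABCA13 rose and ABCA2, ABCA5 and ABCA7 fell. This is 4 higher and 3 lower of 12 tested (58.3% called), against 22.1% higher and 23.2% lower among all tested genes, with a median log2 fold change of 0.20. ABCA2, a lysosomal transporter linked to sphingolipid and cholesterol handling, had 54.1, 52.6 and 50.4 normalized CPM in controls 1 to 3 and 31.1, 27.4 and 31.3 with hyperoside. All hyperoside libraries were lower, and the log2 fold change was -0.81 (standard error 0.09, edgeR adjusted p = 1.14e-06). ABCA7, a phospholipid exporter and the most abundant ABCA gene, had 120.4, 108.7 and 100.9 normalized CPM against 87.8, 85.0 and 90.01. The groups did not overlap, and the log2 fold change was -0.33 (standard error 0.08, edgeR adjusted p = 0.00257). ABCA3, which moves phospholipids into lamellar bodies in the lung, had 25.5 ± 1.79 normalized CPM without hyperoside and 34.2 ± 1.82 with hyperoside (SD, n = 3 each), with a log2 fold change of 0.43 (edgeR adjusted p = 0.00139). ABCA13 rose from 1.93 ± 0.537 to 3.52 ± 0.748 normalized CPM (SD, n = 3 each), with a log2 fold change of 0.87 and an edgeR adjusted p of 0.0149. Its call was lost without hyperoside replicate 1 (edgeR adjusted p = 0.0608), without hyperoside replicate 2 (0.0628) and on both FPKM scales (limma adjusted p = 0.131 and 0.196).

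ABCA1, which loads cholesterol onto apolipoprotein A-I, had 18, 31 and 67 counts in controls 1 to 3 and 79, 47 and 106 with hyperoside. Control replicate 3 lay above hyperoside replicate 2, so the groups overlapped. The log2 fold change of ABCA1 was 0.96 (95% interval 0.06 to 1.85, edgeR adjusted p = 0.0754). Without control replicate 3 it was 1.599 with an edgeR adjusted p of 0.00660, and without hyperoside replicate 2 it was 1.22 with an edgeR adjusted p of 0.0403. With all libraries kept, the edgeR adjusted p was 0.0221 with no filter on low counts and 0.0363 with a block on replicate number. The other 11 of 15 alternatives gave no call, so single libraries and settings decide it. ABCG1, which exports cholesterol to HDL, had 1 count in 1 control and 1 count in 2 hyperoside libraries. A count of 0 allows up to 3 counts, so no difference in ABCG1 was detectable at this depth. ABCG4, a relative of ABCG1, had 22, 22 and 24 counts in controls 1 to 3 and 16, 19 and 2 with hyperoside, with an edgeR adjusted p of 0.236. The sterol exporter genes ABCG5 and ABCG8 had 0 counts in all libraries and 4 counts in total, respectively. ABCB11, the bile salt pump, had overlapping groups, with 8, 37 and 30 counts against 42, 33 and 17.

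ABCA8, ABCA9, ABCA6, ABCA10 and ABCA5 lie in this order in a cluster of related genes on chromosome 17 of GRCh38, between 68867289 and 69327133. Members of this cluster moved in opposite directions, a contrast noted after their values were seen. ABCA8, at the low end of the cluster, had 16.0, 22.8 and 23.1 normalized CPM in controls 1 to 3 and 39.0, 34.9 and 35.2 with hyperoside. All hyperoside libraries were higher, and the log2 fold change was 0.82 (standard error 0.12, edgeR adjusted p = 3.12e-05). ABCA6 had 0.597, 0.767 and 0.560 normalized CPM in controls 1 to 3 and 2.34, 1.14 and 2.44 with hyperoside, from 20 to 27 counts and 42 to 88 counts. Hyperoside replicate 2 was the lowest of its group and still above every control library. The log2 fold change of ABCA6 was 1.62 (standard error 0.39, 95% interval 0.79 to 2.44, edgeR adjusted p = 0.00271), and it was 0.22 on log2(FPKM + 1), where the added 1 is larger than its level. ABCA5, at the high end, had 6.40, 8.75 and 9.49 normalized CPM in controls 1 to 3 and 4.96, 4.68 and 4.79 with hyperoside. All hyperoside libraries were lower, and the log2 fold change was -0.77 (standard error 0.18, edgeR adjusted p = 0.00161). ABCA9, between ABCA8 and ABCA6, had 9, 44 and 23 counts in controls 1 to 3 and 20, 14 and 30 with hyperoside, with an edgeR adjusted p of 0.704. ABCA10 had 0, 11 and 0 counts against 5, 2 and 1 and was not tested. In GENCODE 29, exons of ABCA5 and ABCA10 share 318 bases on the same strand. Exons of ABCA8 share 158 bases and exons of ABCA9 share 534 bases with the antisense gene ABCA9-AS1. The use of strand in counting is not given in the sources used here, so reads in such overlaps cannot be placed.

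**Figure D4:**
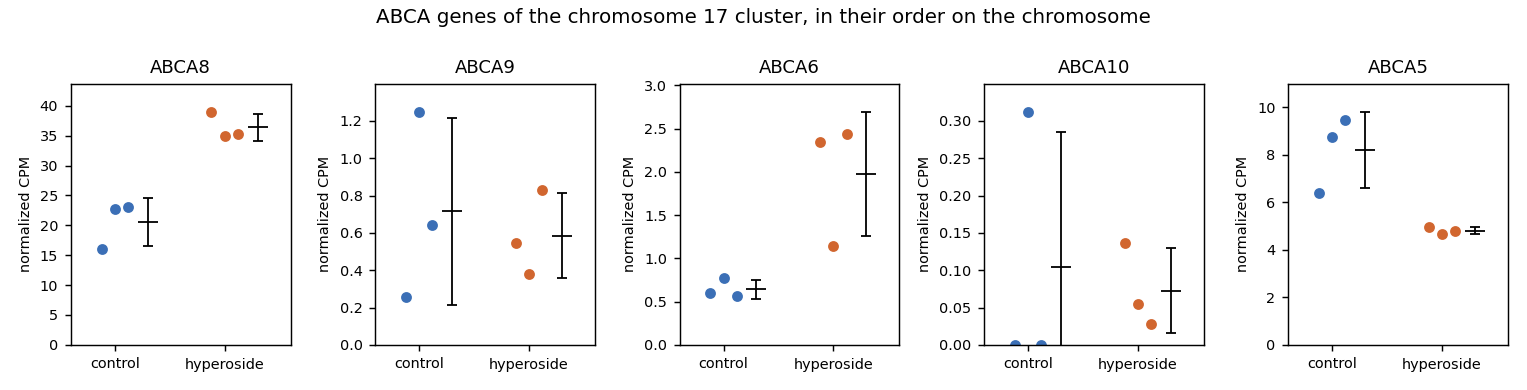
Normalized CPM (y axis, from 0, its own scale in each panel) of the 5 ABCA genes of the chromosome 17 cluster in the 3 control and 3 hyperoside libraries (x axis), with the mean and SD in black. The groups are apart upward for ABCA8 and ABCA6 and downward for ABCA5, and they overlap for ABCA9 and ABCA10.

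Among the transporters listed here as mitochondrial, ABCB6 and ABCB10 were called lower and ABCB8 was not called. ABCB6, linked to porphyrin transport, had 59.0, 44.9 and 46.3 normalized CPM in controls 1 to 3 and 23.4, 24.6 and 26.1 with hyperoside. Control replicate 1 was the highest, and all hyperoside libraries lay below all control libraries. Its log2 fold change was -1.02 (standard error 0.11, 95% interval -1.25 to -0.80, edgeR adjusted p = 6.4e-07), which lies just past the fold change of 2. It was -0.88 without control replicate 1, -0.98 without hyperoside replicate 1 and -0.97 with library totals alone as scaling, each short of a fold change of 2. GENCODE 29 places another protein-coding gene, AC068946.2, on the same strand over 2864 exon bases of ABCB6, so the reads of both cannot be separated there. ABCB10, which is needed for heme synthesis in red cell precursors, had 68.8, 82.2 and 92.6 normalized CPM in controls 1 to 3 and 68.5, 70.3 and 63.8 with hyperoside. The groups overlapped, since control replicate 1 lay below hyperoside replicate 2, and the log2 fold change was -0.27 (edgeR adjusted p = 0.0312). The call of ABCB10 was lost in 9 of 15 alternatives, with an adjusted p of up to 0.196, and with library totals alone as scaling its edgeR adjusted p was 0.106. ABCB8, linked to mitochondrial iron export, had 41.6 ± 3.38 and 43.6 ± 2.63 normalized CPM (SD, n = 3 each), that is, a log2 fold change of 0.07 (95% interval -0.12 to 0.26, edgeR adjusted p = 0.572). Of the 8 K562 markers, 4 fell, among them HBG1, HBG2 and HBE1, KLF1 rose and 3 were not called. The background was 22.1% called higher and 23.2% lower among all tested genes. The part of these markers in the ABCB6 and ABCB10 values was not tested.

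Among the peroxisomal and lysosomal transporters, ABCD4 fell, while ABCD3, ABCD2 and ABCB9 were not called. ABCD3, the most abundant peroxisomal transporter, had 32.0, 38.3 and 38.0 normalized CPM in controls 1 to 3 and 32.5, 36.4 and 33.1 with hyperoside. Its groups overlapped, with a log2 fold change of -0.09 (95% interval -0.29 to 0.12, edgeR adjusted p = 0.490). ABCD2 had 8 to 32 counts in the control and 12 to 14 in the hyperoside libraries, with an edgeR adjusted p of 0.564. ABCD4, which passes cobalamin (vitamin B12) out of lysosomes, had 24.3, 19.8 and 20.7 normalized CPM in controls 1 to 3 and 12.2, 14.2 and 12.6 with hyperoside. All hyperoside libraries were lower, and the log2 fold change was -0.73 (standard error 0.12, edgeR adjusted p = 6.2e-05). Another gene on the same strand, AC005519.1, shares 624 exon bases with ABCD4 in GENCODE 29. The lysosomal peptide transporter ABCB9 had 11.4 ± 0.854 and 10.3 ± 0.175 normalized CPM (SD, n = 3 each), with an edgeR adjusted p of 0.382, and its exons overlap ARL6IP4 and OGFOD2 on the opposite strand.

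The ABC proteins of the ribosome changed little in size. ABCE1, which splits ribosomes after termination, had 158.9, 181.1 and 177.7 normalized CPM in controls 1 to 3 and 141.9, 152.9 and 133.7 with hyperoside. The groups did not overlap, and the log2 fold change was -0.27 (standard error 0.08, edgeR adjusted p = 0.00787). The call was lost without hyperoside replicate 3 (edgeR adjusted p = 0.0710) and on both FPKM scales (limma adjusted p = 0.0507 and 0.0550). ABCF1, which promotes translation initiation, had 195.8, 171.7 and 156.1 normalized CPM against 184.2, 203.4 and 175.6. Its groups overlapped, with a log2 fold change of 0.11 (95% interval -0.07 to 0.28, edgeR adjusted p = 0.336). ABCF2 had 23.6, 18.7 and 17.4 normalized CPM against 21.8, 24.4 and 23.6, a log2 fold change of 0.22 (95% interval -0.02 to 0.47, edgeR adjusted p = 0.131). Without control replicate 1, the library with the highest control values of ABCF1 and ABCF2, their edgeR adjusted p were 0.0204 and 0.00530 and both were called higher. ABCF3 had 54.6 ± 5.66 and 55.0 ± 2.47 normalized CPM (SD, n = 3 each), with a log2 fold change of 0.01 (95% interval -0.18 to 0.20, edgeR adjusted p = 0.926).

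The channel subunit gene ABCC8 had 0 counts in all libraries, and ABCC9 had 17, 23 and 39 counts in controls 1 to 3 and 15, 16 and 9 with hyperoside. The ABCC9 groups did not overlap, but the 95% interval of its log2 fold change ran from -2.13 to 0.09 (edgeR adjusted p = 0.126). In all, 11 ABC genes were not tested. Their highest count in any library was 17, in ABCA4, 5 of them had at most 3 counts in every library, and 2, ABCC8 and ABCG5, had none. ABCA12 had 0, 0 and 4 counts without hyperoside and 14, 8 and 1 with hyperoside.

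Genes that regulate or work with ABC proteins were also counted, from lists chosen with earlier results of these data known. TAP1 and TAP2, which together carry antigen peptides into the endoplasmic reticulum, were both called lower. TAP2 had 62.5, 66.8 and 59.8 normalized CPM in controls 1 to 3 and 36.0, 42.7 and 39.6 with hyperoside, a log2 fold change of -0.68 (edgeR adjusted p = 8.0e-06), and TAP1 had a log2 fold change of -0.46 (edgeR adjusted p = 0.00294). CFTR had at most 2 counts in any library. The LXR proteins are sterol-sensing receptors that switch on ABCA1 and ABCG1. Of 10 genes of the LXR axis, a list of receptor genes and target genes, 6 were called higher, against 22.1% among all tested genes. MYLIP, an LXR target that marks the LDL receptor for degradation, had 105.9, 109.1 and 101.1 normalized CPM in controls 1 to 3 and 202.7, 194.9 and 208.6 with hyperoside, with a log2 fold change of 0.94 (edgeR adjusted p = 1.2e-08). The receptor genes NR1H2 and NR1H3 had log2 fold changes of 0.61 (edgeR adjusted p = 2.2e-05) and 0.54 (edgeR adjusted p = 0.00269). SREBF1, another LXR target, had a log2 fold change of -0.01 (edgeR adjusted p = 0.913). SMPDL3A, LPCAT3 and RXRB were not called either (edgeR adjusted p = 0.114, 0.141 and 0.218).

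Of 8 regulators of drug transporter genes, 5 were tested, 1 was called higher and 4 lower, against 22.1% higher and 23.2% lower among all tested genes. FOXO3, a transcription factor of stress responses, had a log2 fold change of 0.68 (edgeR adjusted p = 8.2e-06), and NFE2L2, which encodes NRF2, had one of -0.52 (edgeR adjusted p = 2.5e-05). AHR had at most 3 counts in any library, and the xenobiotic receptor genes NR1I2 and NR1I3 had 0. Among drug carriers outside the ABC family, 1 was called higher and 2 lower of 6 tested, a share close to the 45.3% called among all tested genes. SLC29A1, a carrier of nucleosides and their drug analogs, had a log2 fold change of 0.30 (edgeR adjusted p = 0.00258) and SLCO4A1 had one of -1.04 (edgeR adjusted p = 1.5e-04).

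Of 10 partners of ABCE1 and the ABCF proteins, 7 were called lower, against 23.2% called lower among all tested genes. HBS1L, which rescues stalled ribosomes together with PELO and ABCE1, had 167.8, 172.3 and 168.1 normalized CPM in controls 1 to 3 and 95.1, 99.4 and 99.6 with hyperoside. The groups were far apart, with a log2 fold change of -0.79 (edgeR adjusted p = 7.6e-08), and PELO had one of -0.46 (edgeR adjusted p = 8.8e-04). Of 12 mitochondrial iron and heme partners, 2 were called higher and 3 lower, a share of 41.7% that is close to the 45.3% of all tested genes. SLC25A37, the mitochondrial iron importer that binds ABCB10, had a log2 fold change of 0.61 (edgeR adjusted p = 1.0e-06), and GLRX5, an iron-sulfur cluster carrier, had one of -0.70 (edgeR adjusted p = 1.7e-06). Of 7 peroxisomal partners 1 was called higher and 2 lower, and these 42.9% are also close to 45.3%. ACSL1, an acyl-CoA synthetase, was at a log2 fold change of -0.65 (edgeR adjusted p = 4.3e-06). Of 5 cobalamin genes, MMACHC alone was called (1 of 5, against 45.3% of all tested genes). MMACHC, which processes the cobalamin that ABCD4 releases, had 5.32, 4.999 and 6.997 normalized CPM in controls 1 to 3 and 14.2, 14.5 and 15.7 with hyperoside. All hyperoside libraries were higher, with a log2 fold change of 1.36 (edgeR adjusted p = 9.7e-07), while ABCD4 itself fell and its partner LMBRD1 had one of -0.09 (edgeR adjusted p = 0.447).

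**Figure D5:**
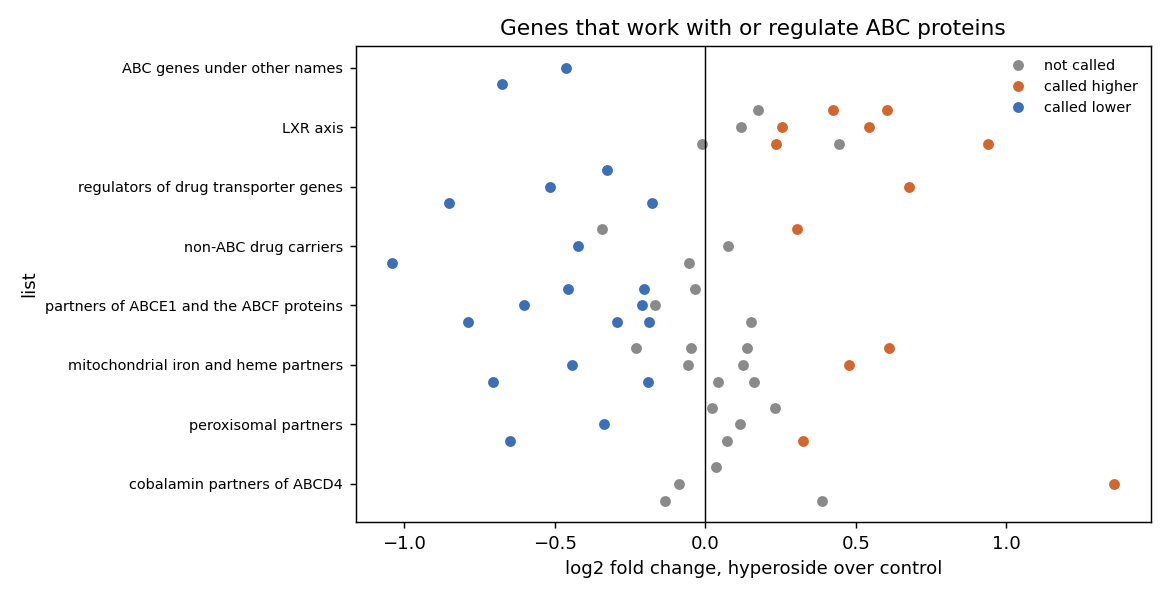
Log2 fold change (hyperoside over control, x axis) of the tested genes in 8 lists of ABC relatives, partners and regulators (y axis), each point 1 gene, coloured by its edgeR call at an adjusted p under 0.05. Of 10 LXR axis genes 9 lie right of 0, up to MYLIP at 0.94, with SREBF1 at -0.01, and of 10 partners of ABCE1 and the ABCF proteins 9 lie left of 0, down to HBS1L at -0.79, with NEMF at 0.15. The uncalled points are 4 of the former and 3 of the latter.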

How the data were processed

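RNA from 6 K562 libraries, 3 control and 3 hyperoside, was measured by RNA sequencing, and samples were grouped by their titles. Per the labels, fastp, HISAT2 and HTSeq were used with hg38, without versions, and the annotation is not given in the sources used here. The authors deposited raw counts per gene and FPKM values, which equal the counts divided by 1 gene length and the library total in all 23241 genes with counts (tolerance 0.1%). The limit set by a count of 0 was taken as 3 counts and covers counting error only.

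Counts were tested in R 4.3.3 with edgeR 4.0.16 (filterByExpr with a minimum count of 10 and total of 15, TMM, quasi-likelihood test, condition as the only term), and p-values were adjusted by Benjamini-Hochberg over all 15095 genes tested. The standard error is the log2 fold change divided by the square root of F. The study names the DESeq package. DESeq2 1.42.0, limma 3.58.1, other scalings and filters, log2(FPKM + 1), log2(FPKM + 0.1), a block on replicate number and the omission of each library served as alternatives. The steps were also run on counts simulated with edgeR's own dispersions, with changes set only in genes of higher mean count. That run does not test calls of genes with fewer counts, ABCA6 among them. Libraries of a group differed by more than counting error (chi-square per degree of freedom 6.56 to 24.9). Control replicate 1 had 21.8 against control replicate 2 and 24.9 against control replicate 3. Control replicates 2 and 3 had 6.56 between them, and the hyperoside libraries 7.59 to 14.0.

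Members and lists were chosen with earlier results of these data known. Values per library are given for 10 listed drug pumps, for members called with a fold change over 2, and for the member of each subfamily with the smallest p and with the highest FPKM; other members with values per library were chosen after their values were seen. Positions and promoters came from RefSeq (GRCh38.p14, matched by NCBI gene number), overlaps from GENCODE 29. ABCC12, KRT5, PF4, GP9, SLC47A1 and the annotation columns were not analysed here. Some genes enter the counts of genes but are not reported here by name or shown in the figures.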

Additional observations from a re-analysis of the deposited data

How the results depend on the processing

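Of the 17 called ABC genes, 12 kept their call and direction in each of their 15 alternatives, among them ABCA2, ABCA3, ABCA5, ABCA6, ABCA7, ABCA8, ABCB1, ABCB6, ABCC5, ABCD4 and ABCG2. The other 5, among them ABCA13, ABCB10, ABCC1 and ABCE1, lost it in at least 1 alternative, and none reversed. ABCA1, ABCF1 and ABCF2 gained a call in at least 1. The number called ranged from 5 to 8 higher and from 8 to 11 lower when 1 library was left out. The number higher and over 2-fold was 2 to 4 and lower and over 2-fold 2 to 3 on leaving out 1 library (4 higher without control replicate 3, with ABCA1 and ABCA13 added), 0 and 0 on log2(FPKM + 1), and 4 and 6 at 1.5-fold. On log2(FPKM + 0.1) 1 gene was higher and over 2-fold. With library totals alone, the median log2 fold change of the ABC genes moved from -0.088 to -0.040, and that of all tested genes from 0.003 to 0.053. The ABC median was -0.058 with at least 1 CPM in 3 libraries, a filter that left out ABCA9, ABCB11, ABCC3, ABCC9, ABCD2 and ABCG4. It was -0.019 on log2(FPKM + 1) and -0.035 on log2(FPKM + 0.1). On leaving out 1 library it ran from -0.16 (without control replicate 1) to 0.018 (without control replicate 2). Leaving out 1 library turned the sign of 4 uncalled genes, whose log2 fold changes then ran from -0.69 to 0.37 for ABCA9, -0.17 to 0.64 for ABCB11, -0.79 to 0.33 for ABCD2 and -0.068 to 0.087 for ABCF3. The cause of these changes was not tested, except that an added 1 shrinks the changes of genes below 1 FPKM by construction.

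The deviations of same-numbered libraries correlated at -0.08 to -0.03, and those of differently numbered libraries at -0.03 to 0.06. Equal replicate numbers thus showed no shared deviation, but 3 libraries per group cannot tell whether cultures were handled in pairs. With a replicate block, 7 genes were called higher and 9 lower, ABCA1 gained a call (edgeR adjusted p = 0.0363), and ABCB10 (0.0567) lost its call. The depth left 11 ABC genes untested.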
